A study of Macaca mulatta with 4 samples.

Results

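Blood taken 4 weeks after a graft of human stem cell-derived islets was compared with blood taken after immunosuppression and just before the graft, in rhesus macaque. The cells were those of the 4 wpt library (4 weeks post-transplantation) and of the Post-IS library, chosen by library from the deposited cell labels. They numbered 1882 and 603, together 2485 of the 6993 cells of the series. Cell shares were taken over all 9 labels. Gene levels were compared in the 3 labels with at least 50 cells in both libraries, which held 1983 cells: T cells (889 at 4 wpt, 115 for Post-IS), CD14+ monocytes (312 at 4 wpt, 329 for Post-IS) and MS4A7+ monocytes (207 at 4 wpt, 131 for Post-IS).

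The study profiled peripheral blood mononuclear cells by 5' single-cell RNA sequencing in 4 libraries, 1 per group. The 4 wpt and 8 wpt libraries came after both immunosuppression and the graft, the Post-IS library after immunosuppression alone, and the Pre-IS library before either. The Post-IS cells had therefore already met the drugs, which the labels do not name. The labels also do not say whether the libraries came from the same animal.

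Blood monocytes fall into a classical kind with high CD14, which is recruited to inflamed tissue, and a nonclassical kind with CD16 and MS4A7, which patrols vessels and takes up immune complexes. Circulating T cells range from naive cells, which carry lymph node homing receptors, to effector cells, which carry granzymes and perforin. Immunosuppression after a graft acts mainly on lymphocytes, while glucocorticoids change transcription in lymphocytes and monocytes alike.

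In the 3 classes compared both libraries carried the markers of their labels, and the libraries differed widely in depth. The median cell held 3551 UMIs (unique molecular identifiers, each 1 captured RNA molecule) at 4 wpt and 1168 for Post-IS, and the shallowest cell 697 at 4 wpt and 289 for Post-IS. By class the medians were 3626 at 4 wpt and 1257 for Post-IS in T cells, 3190 at 4 wpt and 1196 for Post-IS in CD14+ monocytes, and 1945 at 4 wpt and 822 for Post-IS in MS4A7+ monocytes. In the class sums the 4 wpt total was 22.1-fold the Post-IS total for T cells, 2.62-fold for CD14+ monocytes and 3.46-fold for MS4A7+ monocytes, so the Post-IS counts set the precision. With a floor of 3 counts, a count of 0 allowed up to 0.946 CPM at 4 wpt and 20.9 CPM for Post-IS in T cells, where CPM are UMIs of a gene per 1000000 UMIs of the class. For CD14+ monocytes it allowed 2.55 CPM at 4 wpt and 6.69 CPM for Post-IS, and for MS4A7+ monocytes 6.29 CPM at 4 wpt and 21.8 CPM for Post-IS. The summed level of the 10 T cell markers in T cells was 3730 CPM at 4 wpt, against 3368 CPM for Post-IS. The CD14+ monocyte markers summed to 25070 CPM at 4 wpt against 22979 CPM for Post-IS in their own class, and the MS4A7+ monocyte markers to 5852 CPM at 4 wpt against 5715 CPM for Post-IS in theirs. The libraries shared 1 cell barcode. Cells with UMIs of at least 2 marker genes of another lineage, which may be doublets, were 3.29% at 4 wpt and 3.81% for Post-IS. By class they were 2.59% at 4 wpt and 0.870% for Post-IS in T cells, 1.60% at 4 wpt and 6.38% for Post-IS in CD14+ monocytes, and 1.93% at 4 wpt and 0.763% for Post-IS in MS4A7+ monocytes. Leaving these cells out was among the alternatives run. T cells were then 47.6% of all cells at 4 wpt and 19.7% for Post-IS. CD14+ monocytes were then 16.9% at 4 wpt and 53.1% for Post-IS, and MS4A7+ monocytes 11.2% at 4 wpt and 22.4% for Post-IS. None of the changed counts, changed shares or reversed list medians given in the last section arose under this alternative. With 1 library per group there is no spread between replicates, and no test was made. Every interval given is a 95% interval of counting error only. All are exact except those of the ratios of class ratios, which are log-normal approximations.

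The 4 wpt blood held a different mix of cells than the Post-IS blood, and the difference also showed inside each lineage. Within the lymphocytes, NK cells, the innate killers, made up 20.3% of cells at 4 wpt (18.2 to 22.6), against 6.47% (3.003 to 11.9) for Post-IS. T cells accordingly took a lower part of the lymphocytes, at 66.9% (64.3 to 69.5) at 4 wpt against 82.7% (75.4 to 88.6) for Post-IS. The B lineage held an almost equal part of the lymphocytes, 9.64% (8.10 to 11.4) at 4 wpt and 9.35% (5.07 to 15.5) for Post-IS. Proliferating NK and T cells were 3.09% (2.22 to 4.17) of lymphocytes at 4 wpt and 1.44% (0.175 to 5.10) for Post-IS, where they were 2 cells. Within the monocytes, the MS4A7+ label held 39.9% (35.6 to 44.2) at 4 wpt and 28.5% (24.4 to 32.8) for Post-IS. The MS4A7+ part of the monocytes was 22.7% in the Pre-IS library and 15.8% in the 8 wpt library, so it was highest at 4 wpt.

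As parts of all cells, T cells were 47.2% (44.96 to 49.5) at 4 wpt and 19.1% (16.0 to 22.4) for Post-IS, and CD14+ monocytes 16.6% (14.9 to 18.3) at 4 wpt and 54.6% (50.5 to 58.6) for Post-IS. Cells under 1000 UMIs were 115 of 1882 at 4 wpt and 252 of 603 for Post-IS, and 76 of the 131 Post-IS MS4A7+ monocytes were among them. Among cells of at least 1000 UMIs, MS4A7+ monocytes took 10.1% at 4 wpt and 15.7% for Post-IS, where all cells gave 10.999% at 4 wpt and 21.7% for Post-IS. T cells took 48.3% of those cells at 4 wpt and 24.2% for Post-IS. Shares are relative, so a change in the number of cells of 1 class in the blood cannot be told apart from an opposite change in the others.

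**Figure D1:**
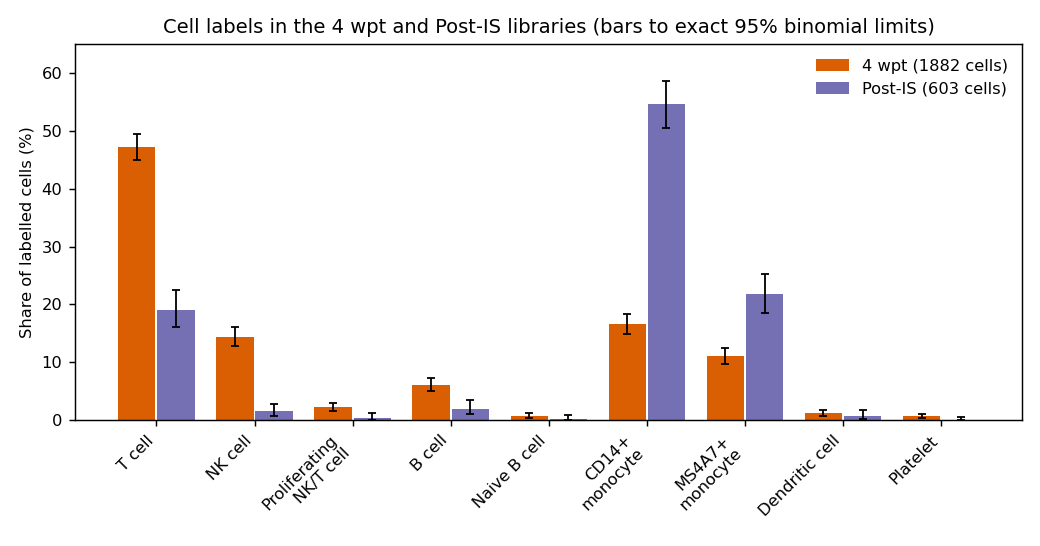
Share of all labelled cells (%) for each of the 9 labels in the 4 wpt and the Post-IS library, with exact binomial 95% intervals as bars. T and NK cells stand higher at 4 wpt, while CD14+ monocytes (16.6% at 4 wpt, 54.6% for Post-IS) and MS4A7+ monocytes (10.999% at 4 wpt, 21.7% for Post-IS) stand lower.

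The platelet label went against the genes in its cells. It was given to 12 cells at 4 wpt, with a median of 832 UMIs, and to 0 of 603 Post-IS cells, which allows a share of up to 0.498%. Of the listed platelet genes in the files only PPBP, a platelet chemokine, was seen in these cells, with 3 UMIs in 2 of the 12. PF4, TUBB1, TREML1, GP1BB, GP9 and ITGA2B had 0 UMIs. Among the genes highest in these cells relative to all other 4 wpt cells were ALOX5AP, the activator of leukotriene synthesis, at 2303 CPM against 99.9 CPM, and CAMP, the cathelicidin antimicrobial peptide, at 2026 against 151 CPM. Their rank follows from a choice made on these cells, and the 12 cells are left without a cell type name here.

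Across the genome, few genes were past the size rule, and more were lower than higher in each class. A gene was counted as higher or lower where the whole interval of its 4 wpt over Post-IS ratio lay beyond 1.5-fold. It entered where it was expected to have at least 5 UMIs in the smaller class total and passed a rule against free RNA from other classes. By that rule it had, in at least 1 of the libraries, 10% or more of the CPM of the highest class with at least 50 cells. Smaller labels were no reference, so RNA such as that of platelets or red cells can be among the counts. In T cells 17 of 3554 genes were higher (0.478%) and 41 lower (1.15%). In CD14+ monocytes 45 of 6590 were higher (0.683%) and 157 lower (2.38%). In MS4A7+ monocytes 14 of 4197 were higher (0.334%) and 46 lower (1.1%). The interval lay wholly inside 1.5-fold for 229, 602 and 246 genes of these classes, and for most of the others it was too wide to place them. The median log2 ratio of all genes at the minimum level was -0.03 in T cells and -0.08 in each monocyte class. Lists below are also described by members whose ratio itself was at least 1.5-fold, a weaker rule. By that rule 17.3% of all genes were higher and 12.7% lower in T cells. In CD14+ monocytes the shares were 12.8% higher and 17.1% lower, and in MS4A7+ monocytes 14.7% higher and 17.4% lower.

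**Figure D2:**
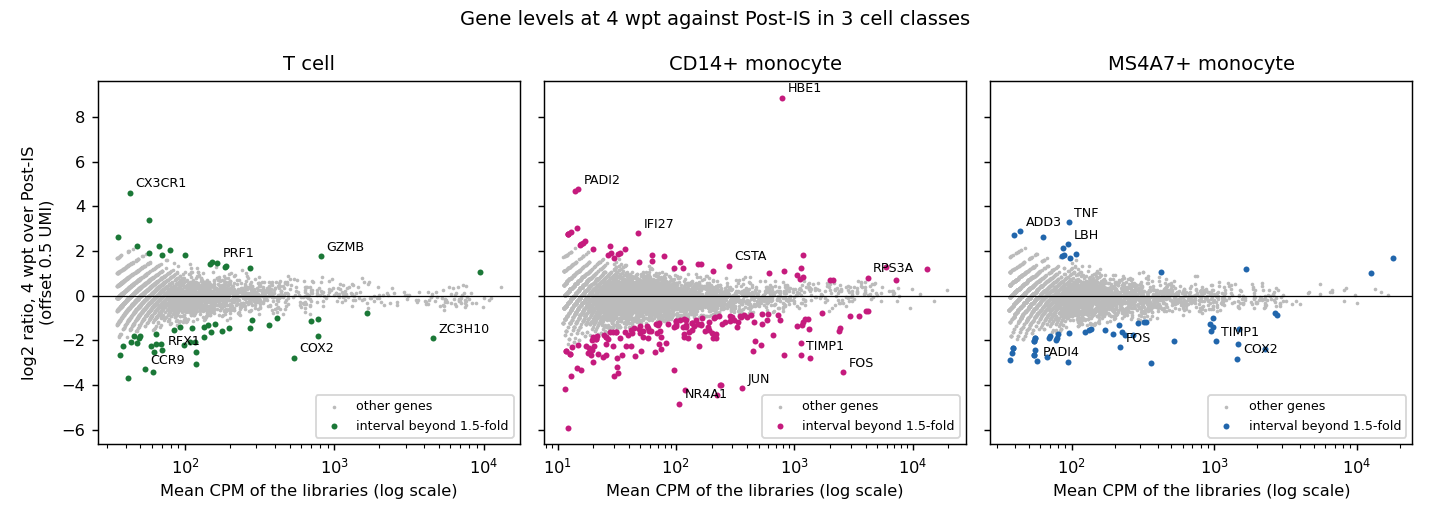
Each point is a gene, with the mean CPM of the libraries on a log axis and the log2 ratio of 4 wpt over Post-IS (offset 0.5 UMI), in T cells, CD14+ monocytes and MS4A7+ monocytes. Colored genes have an interval wholly beyond 1.5-fold, the higher and lower ones counted above, and the deep band of lower genes in CD14+ monocytes holds FOS, JUN and NR4A1.

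Under the T cell label more RNA of cytotoxic genes was found at 4 wpt. Of 16 measured genes of the cytotoxic granule and effector list, 10 had a ratio of at least 1.5-fold higher, against 17.3% of all genes, and 0 of at least 1.5-fold lower, with a median log2 ratio of 0.79, and 6 were past the interval rule. Perforin (PRF1), the pore-forming protein of cytotoxic granules, stood at 243 CPM at 4 wpt, against 83.5 CPM for Post-IS, 2.92-fold higher (1.66 to 5.67). Granzyme K (GZMK), a granule protease of effector memory cells, stood at 381 CPM at 4 wpt against 160.0 CPM for Post-IS, 2.38-fold higher (1.58 to 3.77). Both were near the 4 wpt level in the other libraries, PRF1 with 263 CPM for Pre-IS and 289.6 CPM at 8 wpt, GZMK with 371 and 395 CPM. Granzyme B (GZMB) stood at 1265 CPM at 4 wpt and 369 CPM for Post-IS. Its level at 4 wpt was below that of the other libraries, 1864.5 CPM for Pre-IS and 2044 CPM at 8 wpt. GZMB was detected in 27.7% of 4 wpt cells and 10.4% of Post-IS cells. Thinning to 1000 UMIs kept only the cells with at least that many, here 854 at 4 wpt and 85 for Post-IS. Of these thinned cells, 25.4% at 4 wpt and 7.06% for Post-IS held GZMB. In CD14+ monocytes, which should lack it, GZMB had UMIs in 3.53% of 4 wpt cells and in 0 of 329 Post-IS cells, which allows a share of up to 0.912%. The other members past the rule were the chemokine CCL4L1, at 112 CPM at 4 wpt against 27.8 CPM for Post-IS, granzyme A (GZMA), at 131 CPM at 4 wpt against 27.8 CPM for Post-IS, and CX3CR1. CX3CR1, the fractalkine receptor of effector cells, had 270 UMIs at 4 wpt and 0 for Post-IS and was at least 4.08-fold higher against the floor of 3 counts. GZMA rested on 4 Post-IS UMIs, 3 of them in 1 cell.

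Other members of the cytotoxic list had the same sign without passing the rule. NKG7, a granule membrane protein, stood at 669.8 CPM at 4 wpt, against 397 CPM for Post-IS, with a ratio of 1.69 (1.30 to 2.24). CST7, an inhibitor of granule cathepsins, had a ratio of 2.28 (1.49 to 3.70). Granulysin (GNLY) lay within 1.5-fold, at 985 CPM at 4 wpt against 863 CPM for Post-IS. With cells thinned to 1000 UMIs 3 members of the list were past the rule, in place of 6. The NK list summed to 2326 CPM in T cells at 4 wpt and 1760 CPM for Post-IS, and 4 of its 10 members in the files were measured, KLRD1, GNLY, NKG7 and TYROBP, with a median of 0.33. Of these 1 was at least 1.5-fold higher, 0 lower and 0 past the rule, and 2 members of the list were at 0 for Post-IS and 1 at 4 wpt. KLRD1, GNLY and NKG7 also stand on the cytotoxic list. The NK receptor chain KLRD1 stood at 214 CPM at 4 wpt against 188 CPM for Post-IS, a ratio of 1.14 (0.776 to 1.74). Cells labelled NK were 14.3% of all cells at 4 wpt and 1.49% for Post-IS. The part of NK cells or NK RNA under the T cell label in the cytotoxic result was not tested.

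The coreceptor CD8A, which marks cytotoxic T cells, was 2.95-fold higher (1.64 to 5.94), at 226 CPM at 4 wpt, against 76.5 CPM for Post-IS. Its partner CD8B stood at 93.97 CPM at 4 wpt against 69.6 CPM for Post-IS, a ratio of 1.35 (0.724 to 2.85), and the helper cell coreceptor CD4 at 102 CPM at 4 wpt against 83.5 CPM for Post-IS, a ratio of 1.22 (0.691 to 2.39). STXBP2, needed for the release of cytotoxic granules, stood at 92.7 CPM at 4 wpt against 20.9 CPM for Post-IS, a ratio of 4.44 (1.505 to 21.7) on 3 Post-IS UMIs. Further higher genes were UBASH3A, a phosphatase-like suppressor of T cell receptor signalling, with 257 UMIs at 4 wpt against 2 for Post-IS and a ratio of 5.82 (1.60 to 48.3), and IL18, a cytokine released by inflammasomes, with 203 UMIs at 4 wpt against 1 for Post-IS and a ratio of 9.20 (1.63 to 365). The phosphatase PPM1M had a ratio of 5.41 (1.84 to 26.3) on 3 Post-IS UMIs, and TC2N was 3.78-fold higher (1.72 to 10.3). CASP12, of the caspase family, was 2.60-fold higher (1.57 to 4.67), at 272 CPM at 4 wpt, against 104 CPM for Post-IS. For PPM1M, UBASH3A and STXBP2 the Pre-IS and 8 wpt levels lay near the 4 wpt level, UBASH3A at 82.97 CPM for Pre-IS and 89.96 CPM at 8 wpt, whereas IL18, TC2N and CASP12 were highest at 4 wpt of the 4 libraries. The T cell receptor signalling list had 19 measured members, of which 5 were at least 1.5-fold higher, 2 lower and 0 past the interval rule. Its median was 0.23, and its kinase ZAP70 had a ratio of 2.54 (1.48 to 4.80).

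Genes of naive and central memory T cells leaned the other way. Among 15 measured members, 6 were lower by at least 1.5-fold and 1 was higher, and the median was -0.46. LEF1, a transcription factor of naive cells, and CCR9, the gut-homing receptor, were past the rule. TCF7, the partner of LEF1, stood at 158 CPM at 4 wpt, against 244 CPM for Post-IS, a ratio of 0.649 (0.460 to 0.942). The survival receptor IL7R had 1102 CPM at 4 wpt against 1509.8 CPM for Post-IS with a ratio of 0.730 (0.636 to 0.841). CCR7, which guides cells into lymph nodes, differed less, at 387 CPM at 4 wpt against 452 CPM for Post-IS (0.855, interval 0.666 to 1.11). For LEF1 and TCF7 the 4 wpt level was close to that of the Pre-IS library, LEF1 at 274 CPM at 4 wpt and 271 CPM for Pre-IS, and TCF7 at 158 CPM at 4 wpt and 156 CPM for Pre-IS.

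Outside these lists, the named lower genes of T cells covered signalling and transport. SFRP5, a secreted Wnt antagonist, was 4.18-fold lower (2.61 to 6.44), at 41.6 CPM at 4 wpt, against 174 CPM for Post-IS. GPR174, a receptor for lysophosphatidylserine that restrains T cells in mice, was 3.04-fold lower (2.03 to 4.42), and the zinc transporter SLC30A7 2.99-fold lower (2.08 to 4.21). YWHAH, a 14-3-3 protein, was 2.69-fold lower (2.01 to 3.55), and MAP2K2, the kinase MEK2, 2.72-fold lower (1.91 to 3.77). WDR47 was 6.02-fold lower (2.53 to 12.9) on 9 Post-IS UMIs. GPR174 and SLC30A7 stood between in the other libraries, GPR174 at 152 CPM for Pre-IS and 123 CPM at 8 wpt, SLC30A7 at 158 and 141 CPM.

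Interferon genes in T cells were mixed. IRF1, a driver of the interferon response, was the 1 member past the rule among 7 measured on the interferon gamma list, at 266 CPM at 4 wpt, against 104 CPM for Post-IS, 2.55-fold higher (1.54 to 4.57), and 4 of the 7 were at least 1.5-fold higher with a median of 0.58. Of 16 type I interferon-stimulated genes measured in T cells, 5 were at least 1.5-fold higher, 1 lower and 0 past the rule, with a median of 0.06. The early response list in T cells had 10 measured members, 2 higher, 4 lower and 0 past the rule, with a median of -0.16. Its member KLF2, a transcription factor of resting T cells, stood at 478 CPM at 4 wpt against 793 CPM for Post-IS, a ratio of 0.603 (0.498 to 0.736). Glucocorticoid-induced genes had 14 measured members, of which 1 was at least 1.5-fold higher, 2 lower and 0 past the rule, with a median of -0.03.

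Some genes of other lineages also differed under the T cell label. CD79A, part of the B cell receptor, was lower, at 13.6 CPM at 4 wpt, against 62.6 CPM for Post-IS, but 8 of its 9 Post-IS UMIs sat in 1 cell. The monocyte alarmin S100A8 stood at 15.1 CPM at 4 wpt against 62.6 CPM for Post-IS, with UMIs in 4.72% of 4 wpt cells and 6.09% of Post-IS cells, and did not enter because it was under 10% of its level in CD14+ monocytes. The B cell list summed to 22.7 CPM at 4 wpt and 111 CPM for Post-IS under the T cell label, and the monocyte list to 51.4 CPM at 4 wpt and 139 CPM for Post-IS. The NK list, given with the cytotoxic genes, was the most abundant of the 3. Their part in the T cell results was not tested.

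CD14+ monocytes at 4 wpt had far less RNA of the immediate early response genes, transcription factors and feedback regulators that are induced within minutes of a stimulus and decay fast. Of 24 measured members 21 were at least 1.5-fold lower and 1 higher, the median log2 ratio was -1.53, and 17 were past the interval rule, against 2.38% of all genes. The AP-1 subunit FOS stood at 437 CPM at 4 wpt, against 4741 CPM for Post-IS, 10.8-fold lower (9.84 to 11.96). FOS was seen in 66.3% of 4 wpt cells and 95.1% of Post-IS cells, while 3.49% of 4 wpt T cells and 5.22% of Post-IS T cells held a FOS UMI. The CD14+ monocytes kept and thinned to 1000 UMIs were 283 at 4 wpt and 187 for Post-IS. Among them FOS was seen in 34.3% at 4 wpt and 93.05% for Post-IS. It stood at 1961 CPM for Pre-IS and 589.8 CPM at 8 wpt, so the Post-IS level was the highest of the 4 libraries and the 4 wpt level the lowest. FOSB and JUNB, further AP-1 subunits, were also highest in the Post-IS library, with close levels at 4 wpt and 8 wpt. FOSB was 16.4-fold lower (11.2 to 24.6), at 27.2 CPM at 4 wpt against 446 CPM for Post-IS, with 131 CPM for Pre-IS and 33.7 CPM at 8 wpt. JUNB was 3.39-fold lower (2.94 to 3.90), at 300.3 CPM at 4 wpt against 1016 CPM for Post-IS, with 538 CPM for Pre-IS and 324 CPM at 8 wpt. It had UMIs in a like part of the cells, 54.8% of 4 wpt cells and 56.5% of Post-IS cells. Of the cells kept and thinned to 1000 UMIs, 24.7% at 4 wpt and 62.03% for Post-IS held JUNB.

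The zinc finger and nuclear receptor members of the early response list were lower too. The orphan receptor NR4A1 had 8 UMIs at 4 wpt and 92 for Post-IS, and UMIs in 1.60% of 4 wpt cells and 20.97% of Post-IS cells, while EGR1, a zinc finger factor, stood at 18.7 CPM at 4 wpt against 421 CPM for Post-IS. NR4A1 and EGR1 were also lower at 8 wpt than in the Post-IS library, at 12.5 and 25.02 CPM. KLF6, a stress-responsive factor, was 4.05-fold lower (3.41 to 4.83), at 185 CPM at 4 wpt, against 751 CPM for Post-IS. KLF4, a factor of monocyte differentiation, was 2.42-fold lower (1.93 to 3.03), KLF2 2.67-fold lower (2.20 to 3.24) and KLF10 5.24-fold lower (3.27 to 8.57). EGR2 was 4.91-fold lower (1.956 to 13.4) on 8 UMIs at 4 wpt and 15 for Post-IS, and NR4A2 had 3 UMIs at 4 wpt against 12 for Post-IS, 10.5-fold lower (2.83 to 57.9). Feedback regulators belonged to the same set. The MAP kinase phosphatase DUSP1 stood at 340.2 CPM at 4 wpt, against 2385 CPM for Post-IS, the mRNA-decay factor ZFP36 was 2.83-fold lower (2.57 to 3.11), at 697 CPM at 4 wpt against 1968 CPM for Post-IS, and PPP1R15A, which ends the integrated stress response, was 2.94-fold lower (2.16 to 4.02). The growth regulator MYC was the member with the opposite sign, at 103 CPM at 4 wpt against 49.04 CPM for Post-IS and a ratio of 2.10 (1.32 to 3.47), which does not pass the rule. Heat shock proteins and chaperones had 26 measured members, 7 of them at least 1.5-fold lower, 0 higher and 0 past the rule, with a median of -0.41. HSPA8, the constitutive HSP70, lay at 801 CPM at 4 wpt against 702 CPM for Post-IS and HSP90AA1 at 474 CPM at 4 wpt against 515 CPM for Post-IS, both within 1.5-fold.

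**Figure D3:**
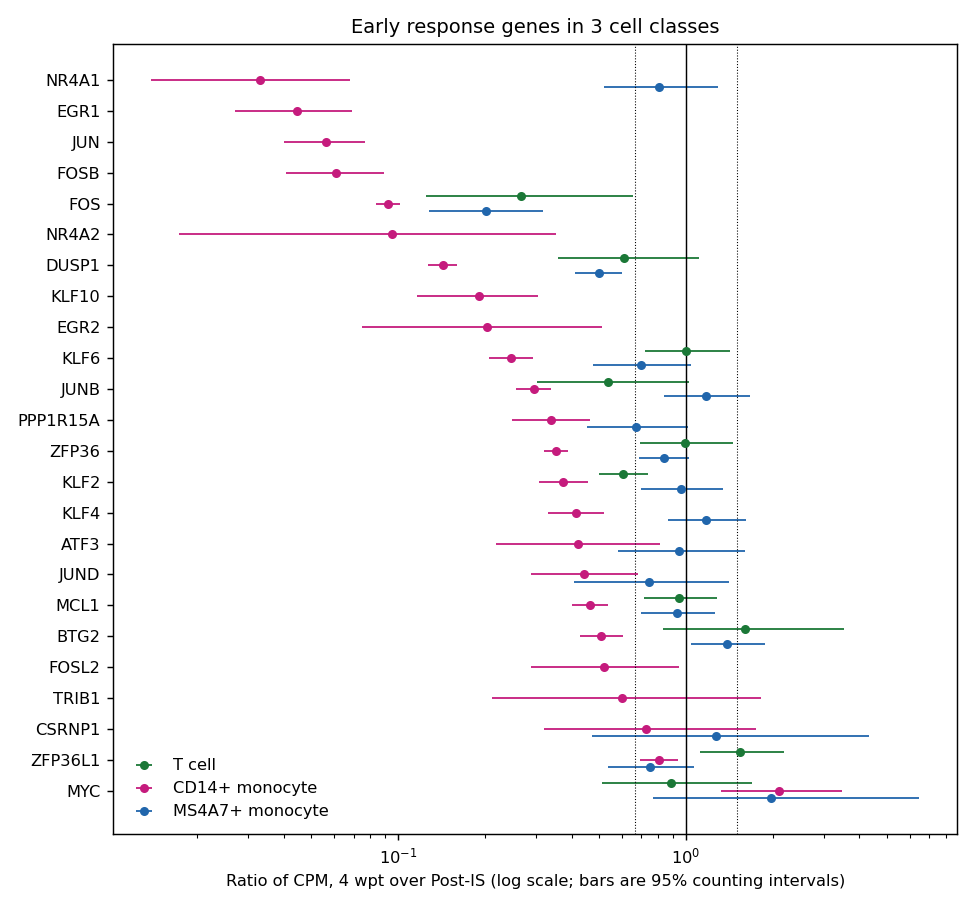
Ratio of CPM, 4 wpt over Post-IS, on a log axis for the measured early response genes in each of the 3 classes, with exact 95% counting intervals as bars and dotted lines at 1.5-fold in both directions. CD14+ monocyte points run far left of the others, to 0.0332 for NR4A1, while most MS4A7+ monocyte points lie between the dotted lines.

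Glucocorticoid-induced genes were divided in CD14+ monocytes. Of 22 measured members 12 were at least 1.5-fold lower, 1 higher and 9 past the interval rule, with a median of -1.10. Of all genes of the class 17.1% were at least 1.5-fold lower, and 2.38% were lower by the interval rule. CEBPD, a myeloid transcription factor, was 4.61-fold lower (3.90 to 5.46), at 187 CPM at 4 wpt, against 863 CPM for Post-IS, and DDIT4, an inhibitor of mTOR signalling, 4.48-fold lower (2.82 to 7.22). SGK1, a kinase of ion and stress signalling, was 3.32-fold lower (2.36 to 4.68), TSC22D3, the glucocorticoid-induced leucine zipper, 2.39-fold lower (2.05 to 2.77), the chemokine receptor CXCR4 2.40-fold lower (1.63 to 3.53) and TXNIP, a binder of thioredoxin, 2.48-fold lower (2.25 to 2.75). Other well-known members did not pass the rule. FKBP5, a co-chaperone of the glucocorticoid receptor, had 136 CPM at 4 wpt against 138 CPM for Post-IS, PER1, a clock gene, 85.9 CPM at 4 wpt against 84.7 CPM for Post-IS, and CD163, the hemoglobin scavenger receptor, 515 CPM at 4 wpt against 649 CPM for Post-IS. CD163 and FKBP5 were lower in the Pre-IS and 8 wpt libraries, CD163 at 283 and 312 CPM and FKBP5 at 76.6 and 64.5 CPM. The members DUSP1, KLF4 and ZFP36 also stand on the early response list.

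Further genes were lower in CD14+ monocytes at 4 wpt. Of all genes of this class 17.1% were at least 1.5-fold lower, and 2.38% were lower by the interval rule. Of 16 measured NF-kB targets and inflammatory mediators 8 were at least 1.5-fold lower and 1 higher, with a median of -0.62, and 3 were past the rule. These were PTGS2, the inducible cyclooxygenase, at 11.9 CPM at 4 wpt against 227 CPM for Post-IS, G0S2, a lipolysis inhibitor, 6.43-fold lower (3.09 to 14.4), and TNFAIP2, 2.43-fold lower (1.70 to 3.47). The cytokine IL1B of this list stood at 79.1 CPM at 4 wpt against 89.2 CPM for Post-IS, a ratio of 0.887 (0.606 to 1.32). SOCS3, the feedback inhibitor of cytokine receptors, was 6.55-fold lower (3.44 to 13.2). On the p53 and apoptosis list 8 of 19 measured members were at least 1.5-fold lower, 0 higher and 4 past the rule, with a median of -0.49. Among them the cell cycle inhibitor CDKN1A was 3.68-fold lower (2.84 to 4.78), at 88.5 CPM at 4 wpt against 325 CPM for Post-IS, and the survival factor MCL1 2.16-fold lower (1.87 to 2.48). TIMP1, an inhibitor of matrix metalloproteinases, was 6.31-fold lower (5.58 to 7.15), at 311 CPM at 4 wpt, against 1966 CPM for Post-IS, and APOBEC3A, a cytidine deaminase, 3.28-fold lower (2.56 to 4.21), with up to 20 of its 119 UMIs at 4 wpt in 1 cell. Thrombomodulin (THBD) was 3.59-fold lower (2.32 to 5.60).

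Nonclassical monocyte genes were also lower under the CD14+ label. Of 18 measured members 10 were at least 1.5-fold lower, 1 higher and 6 past the rule, with a median of -0.99. Of all genes of the class 17.1% were at least 1.5-fold lower, and 2.38% were lower by the interval rule. LST1, a myeloid membrane protein, was 3.68-fold lower (2.86 to 4.75), at 92.7 CPM at 4 wpt, against 341 CPM for Post-IS. VMO1 was 2.27-fold lower (2.05 to 2.51), at 729.8 CPM at 4 wpt against 1656 CPM for Post-IS, the transcription factor TCF7L2 3.70-fold lower (2.25 to 6.18), and FCGR3, the Fc receptor CD16, 2.13-fold lower (1.55 to 2.93). C1QB, of the complement starter C1q, was past the rule on few cells, with 28 of its 43 UMIs at 4 wpt in 1 cell, and NR4A1 is an early response gene as well. The summed level of the MS4A7+ monocyte markers under the CD14+ label was 947 CPM at 4 wpt and 1473 CPM for Post-IS. Whether cells of the other monocyte kind under the label have a part in this result was not tested.

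Among Fc receptors and their signalling partners 16 members were measured, with 4 at least 1.5-fold lower, 1 higher and a median of -0.33, and FCER1G, the shared signalling chain, was 1.86-fold lower (1.75 to 1.98), at 2064 CPM at 4 wpt against 3834 CPM for Post-IS. It and FCGR3 were the members past the rule. The classical monocyte and S100 list was mostly level. Of its 22 measured members 3 passed 1.5-fold upward and 3 downward, and its median was -0.16. Its 3 lower members were past the rule: S100A10, the annexin partner, was 1.63-fold lower (1.54 to 1.72), S100A11 5.68-fold lower (3.17 to 10.5) and MGST1, a microsomal glutathione transferase, 2.51-fold lower (1.63 to 3.86). The defining receptor CD14 stood at 651 CPM at 4 wpt, against 954 CPM for Post-IS, a ratio of 0.682 (0.605 to 0.770).

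Platelet RNA was lower in the 4 wpt CD14+ monocytes. The platelet marker list summed to 26.4 CPM at 4 wpt and 279 CPM for Post-IS in this class, and to 33.6 CPM at 4 wpt and 138 CPM for Post-IS in MS4A7+ monocytes. PPBP was 10.4-fold lower (6.27 to 17.9), at 17.01 CPM at 4 wpt against 176 CPM for Post-IS, with UMIs in 2.88% of 4 wpt cells and 14.3% of Post-IS cells. PF4 was 13.1-fold lower (4.93 to 43.8), and the platelet tubulin TUBB1, with 0 UMIs at 4 wpt against 11 for Post-IS, was at least 9.61-fold lower against the floor of 3 counts. PPBP in the other libraries stood at 21.9 CPM for Pre-IS and 136 CPM at 8 wpt. Without the monocytes that held a UMI of PF4, PPBP or TUBB1, an alternative chosen after seeing the data, 16 early response genes were past the rule in CD14+ monocytes, in place of 17.

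Fewer genes were higher than lower in CD14+ monocytes. Of 29 measured type I interferon-stimulated genes 10 were at least 1.5-fold higher, 0 lower and 4 past the rule, with a median of 0.21. PARP14, a mono-ADP-ribosyltransferase, stood at 61.2 CPM at 4 wpt, against 13.4 CPM for Post-IS, 4.58-fold higher (2.004 to 12.9). IFIT3, a member of an antiviral RNA-binding complex, had 35 UMIs at 4 wpt against 2 for Post-IS, a ratio of 6.68 (1.72 to 57.3). IRF7, the regulator of type I interferon, stood at 54.4 CPM at 4 wpt against 13.4 CPM for Post-IS, and IFI27 had its 99 UMIs at 4 wpt in 22 of 312 cells, 25 of them in 1 cell. Other antiviral members did not pass the rule, OAS2 at 30.6 CPM at 4 wpt against 20.1 CPM for Post-IS and XAF1 at 45.1 CPM at 4 wpt against 42.4 CPM for Post-IS. UBE2L6, the enzyme that attaches ISG15, was 2.998-fold higher (1.71 to 5.66) and stands on the interferon gamma list, where 3 of 11 measured members were at least 1.5-fold higher, 1 lower and the median was 0.33. With cells thinned to 1000 UMIs 1 type I interferon gene was past the rule, in place of 4.

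CSTA, the cysteine protease inhibitor cystatin A, was 2.56-fold higher (1.99 to 3.33), at 405 CPM at 4 wpt, against 158 CPM for Post-IS. CSTA was seen in 72.4% of 4 wpt cells and 16.4% of Post-IS cells. Of the cells kept and thinned to 1000 UMIs, 38.5% at 4 wpt and 13.4% for Post-IS held CSTA. Its level was 139 CPM for Pre-IS and 218 CPM at 8 wpt. The inhibitory sialic acid receptor CD33 was 5.25-fold higher (1.94 to 19.9), at 46.8 CPM at 4 wpt against 8.92 CPM for Post-IS, and SLA, an adaptor that dampens receptor signalling, 3.72-fold higher (2.05 to 7.41), at 99.5 CPM at 4 wpt against 26.7 CPM for Post-IS. CYREN, a regulator of DNA end joining, had 32 UMIs at 4 wpt against 1 for Post-IS, a ratio of 12.2 (2.04 to 497). CD48, an adhesion and costimulation ligand, was 1.79-fold higher (1.60 to 2.003), at 1506 CPM at 4 wpt against 843 CPM for Post-IS, and the chromatin protein HMGA1 2.95-fold higher (1.57 to 6.13). PADI2, which converts arginine to citrulline in proteins, was seen in 26 of 312 cells at 4 wpt, against 0 of 329 for Post-IS, which allows a share of up to 0.912%. MHC class II genes were close to level, with 1 of 12 measured members at least 1.5-fold higher, 2 lower and a median of 0.21. MAMU-DRA, an abundant member, stood at 5276 CPM at 4 wpt against 3691 CPM for Post-IS, a ratio of 1.43 (1.35 to 1.51). MAMU-DOA, of the peptide-loading regulator DO, was past the rule on 1 Post-IS UMI, with a ratio of 9.92 (1.63 to 407).

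Ribosomal protein genes took 18.8% of the UMIs of CD14+ monocytes at 4 wpt and 15.4% for Post-IS. In T cells they took 30.0% at 4 wpt and 33.7% for Post-IS, and in MS4A7+ monocytes 10.7% at 4 wpt and 11.8% for Post-IS. Of 77 measured ribosomal protein genes in CD14+ monocytes 12 were at least 1.5-fold higher, a share near that of all genes. At least 1.5-fold lower was 1, against 17.1% of all genes. The median of the ribosomal protein genes was 0.29, and 4 were higher by the interval rule, against 0.683% of all genes. The medians were -0.14 in T cells and -0.15 in MS4A7+ monocytes. RPS3A was 1.74-fold higher (1.64 to 1.85), at 5293 CPM at 4 wpt, against 3034 CPM for Post-IS, while in T cells it stood at 7288 CPM at 4 wpt against 7027 CPM for Post-IS. RPS20 was 2.01-fold higher (1.71 to 2.37), RPL7 1.70-fold higher (1.52 to 1.91) and RPL38 1.65-fold higher (1.52 to 1.79). Translation elongation factors were higher too, EEF1B2 1.91-fold higher (1.69 to 2.15) and EEF1A1 1.62-fold higher (1.55 to 1.69), and so was NACA, of the nascent chain complex, 1.65-fold higher (1.52 to 1.79). The whole translation factor list had 8 of 54 members at least 1.5-fold higher, also a share near that of all genes, 6 lower and a median of -0.08. By the interval rule 2 of its members were higher. Ribosomal and elongation factor genes have near-identical copies in the genome, and how the counting dealt with such copies is not given in the sources used here.

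The hemoglobin genes under the CD14+ label show the limit of counting intervals. HBA, an alpha globin, stood at 1856 CPM at 4 wpt against 522 CPM for Post-IS and HBE1, of the beta globin family, at 1576 CPM at 4 wpt against 2.23 CPM for Post-IS. At 4 wpt 1773 of 2182 HBA UMIs and 1838 of 1853 HBE1 UMIs sat in 1 cell. Their intervals treat UMIs as independent, so neither can be read as a change of the class.

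MS4A7+ monocytes had fewer genes past the rule than CD14+ monocytes. The Post-IS total of CD14+ monocytes was larger, 448622 against 137874 UMIs, so these counts are not ranked. In MS4A7+ monocytes 14 genes were higher and 46 lower, so lower genes again outnumbered higher ones. Classical monocyte genes had 7 of 12 measured members at least 1.5-fold lower and 0 higher in this class, with a median of -0.71. PADI4, the citrullinating enzyme of neutrophils and monocytes, was 8.07-fold lower (2.91 to 25.6), at 12.6 CPM at 4 wpt, against 102 CPM for Post-IS, on 6 UMIs at 4 wpt and 14 for Post-IS. It stood at 119.9 CPM for Pre-IS and 96.1 CPM at 8 wpt, so the 4 wpt level was the lowest of the 4. VCAN, a matrix proteoglycan of classical monocytes, stood at 107 CPM at 4 wpt against 363 CPM for Post-IS. The CD14+ monocyte markers summed to 1095 CPM at 4 wpt and 1958 CPM for Post-IS under the MS4A7+ label, and their part in these results was not tested.

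Nonclassical genes were level in MS4A7+ monocytes as a list, with 0 of 20 measured members at least 1.5-fold higher, 4 lower and a median of 0.01. MS4A7 itself stood at 931 CPM at 4 wpt, against 791 CPM for Post-IS, and FCGR3 at 1642 CPM at 4 wpt against 1146 CPM for Post-IS, a ratio of 1.43 (1.21 to 1.71). LST1 was 2.62-fold lower (2.16 to 3.16), at 543 CPM at 4 wpt against 1422 CPM for Post-IS, and C1QA 6.92-fold lower (2.79 to 18.7) on 5 cells in each library. C1QA stood higher in the other libraries, at 249.9 CPM for Pre-IS and 364 CPM at 8 wpt. Of 12 measured Fc receptor genes 1 was at least 1.5-fold higher, 0 were lower, and the median was 0.33.

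In MS4A7+ monocytes 17.4% of all genes were at least 1.5-fold lower, and 1.1% were lower by the interval rule. Glucocorticoid-induced genes in this class had 8 of 19 measured members at least 1.5-fold lower, 1 higher and 4 past the rule, with a median of -0.26. CEBPD was 2.88-fold lower (1.79 to 4.62), DDIT4 2.85-fold lower (1.66 to 4.84) and DUSP1 2.01-fold lower (1.67 to 2.43), with TXNIP as the fourth. TSC22D3 stood at 509.7 CPM at 4 wpt against 812 CPM for Post-IS, FKBP5 at 245 CPM at 4 wpt against 341 CPM for Post-IS and PER1 at 92.3 CPM at 4 wpt against 87.04 CPM for Post-IS. FKBP5 was 49.98 CPM in the Pre-IS library and 27.5 CPM in the 8 wpt library, so both the 4 wpt and the Post-IS cells lay well above these. Early response genes had 2 of 16 measured members at least 1.5-fold lower, FOS and DUSP1, 1 higher and a median of -0.18. The share at least 1.5-fold lower was near that of all genes, while FOS and DUSP1 were also past the interval rule. NR4A1, so much lower in CD14+ monocytes, stood at 164 CPM at 4 wpt, against 203 CPM for Post-IS in MS4A7+ monocytes, and JUNB at 373 CPM at 4 wpt against 319 CPM for Post-IS. Cystatin C (CST3) was 2.44-fold lower (2.002 to 2.96), with up to 32 of 257 UMIs at 4 wpt in 1 cell. The acid lipase LIPA was 3.14-fold lower (1.63 to 6.04) and is on the phagocytosis and lysosome list, where 7 of 25 measured members were at least 1.5-fold lower, 2 higher and 2 past the rule. SHTN1 and ZHX1, both with 7 UMIs at 4 wpt and 13 for Post-IS, were 6.42-fold lower (2.38 to 19.01).

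The higher genes of MS4A7+ monocytes included the inflammatory cytokine TNF. TNF was seen in 26.1% of 4 wpt cells and 1.53% of Post-IS cells, and after thinning to 1000 UMIs in 15.6% of 4 wpt cells and 0 of 55 Post-IS cells, which allows a share of up to 5.45%. In T cells 3.71% held a TNF UMI at 4 wpt and 0.870% for Post-IS. TNF stood at 176 CPM at 4 wpt, against 14.5 CPM for Post-IS, a ratio of 12.1 (3.26 to 102) on 2 Post-IS UMIs. It stood at 100 CPM for Pre-IS and at 34.3 CPM at 8 wpt. The 8 wpt level rests on few UMIs as well, so the Post-IS and 8 wpt levels are not ranked. IL1B had the same sign at 193 CPM at 4 wpt against 94.3 CPM for Post-IS, a ratio of 2.05 (1.14 to 3.99) that does not pass the rule. The whole NF-kB and inflammatory list had 2 of 10 measured members at least 1.5-fold higher, 3 lower and a median of -0.25. The histamine receptor HRH2 was 3.88-fold higher (1.58 to 12.3), at 141 CPM at 4 wpt against 36.3 CPM for Post-IS.

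Other genes were also higher in MS4A7+ monocytes. ATRX, a chromatin remodeller, was 4.99-fold higher (1.86 to 18.8), at 145 CPM at 4 wpt, against 29.01 CPM for Post-IS, on 4 Post-IS UMIs. RSRP1 was 2.14-fold higher (1.52 to 3.11), at 575 CPM at 4 wpt against 268 CPM for Post-IS, the lipase-like ABHD3 3.47-fold higher (1.52 to 9.77), and the transcription cofactor LBH 5.49-fold higher (2.06 to 20.7). SDHD, an anchor subunit of respiratory complex II, had 34 UMIs at 4 wpt against 1 for Post-IS, a ratio of 9.83 (1.65 to 399.7), and the helicase DHX29 had 53 at 4 wpt against 2 for Post-IS. Type I interferon genes had 8 of 24 measured members at least 1.5-fold higher, 1 lower and 0 past the rule, with a median of 0.12. In this class PARP14 stood at 132 CPM at 4 wpt against 102 CPM for Post-IS, IFIT3 at 50.3 CPM at 4 wpt against 29.01 CPM for Post-IS and IRF7 at 52.4 CPM at 4 wpt against 29.01 CPM for Post-IS.

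Changes shared by all 3 classes were few. Of 2764 genes that entered in every class, 2 were higher in all 3 and 10 lower in all 3. A further 3 were higher and 11 lower in exactly 2 classes, and 25 higher and 68 lower in exactly 1. No gene was higher in 1 class and lower in another. Per class 0.334% to 0.683% of genes were higher and 1.1% to 2.38% lower. By these shares alone such genes would be rare, so their absence is not read as a result. The 3 comparisons use different cells of the same 2 libraries, so any difference between the libraries as wholes enters each of them. The shared genes are therefore given as values, and what they have in common is not read as support.

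The largest shared group was mitochondrial. The same 5 transcripts of the mitochondrial genome, COX1, COX2, CYTB, ND4L and ND5, which encode subunits of the respiratory chain, were lower at 4 wpt in each class. COX2 stood at 137 CPM at 4 wpt, against 932 CPM for Post-IS in T cells, 6.81-fold lower (5.57 to 8.29). In CD14+ monocytes COX2 had 224 CPM at 4 wpt against 1422 CPM for Post-IS, 6.36-fold lower (5.50 to 7.37), and in MS4A7+ monocytes 357 CPM at 4 wpt against 2546 CPM for Post-IS, 7.14-fold lower (5.93 to 8.63). ND4L was 8.17-fold lower (5.19 to 12.6) in T cells, 16.2-fold lower (11.2 to 24.2) in CD14+ monocytes and 8.22-fold lower (5.54 to 12.4) in MS4A7+ monocytes, and COX1 was 3.47-fold lower (2.94 to 4.07), 4.41-fold lower (3.94 to 4.94) and 5.23-fold lower (4.56 to 6.01) in the same order. ND5 and CYTB were lower by between 3.13-fold (CYTB in MS4A7+ monocytes) and 5.61-fold (ND5 in T cells).

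Other mitochondrial transcripts of the same cells were not past the rule. The list medians were -1.23 over 10 measured transcripts in T cells, -0.69 over 11 in CD14+ monocytes and -0.56 over 11 in MS4A7+ monocytes. COX3, the mitochondrial transcript with most UMIs, stood at 5801 CPM at 4 wpt, against 4898 CPM for Post-IS in T cells, at 7412 CPM at 4 wpt against 6310.4 CPM for Post-IS in CD14+ monocytes and at 14834 CPM at 4 wpt against 11909 CPM for Post-IS in MS4A7+ monocytes. ND1 had 525 CPM at 4 wpt against 536 CPM for Post-IS, 839 CPM at 4 wpt against 782 CPM for Post-IS and 1645 CPM at 4 wpt against 1385 CPM for Post-IS in these classes, and ND2 584 CPM at 4 wpt against 376 CPM for Post-IS, 784 CPM at 4 wpt against 577 CPM for Post-IS and 1456 CPM at 4 wpt against 1088 CPM for Post-IS. ND4 and ATP6 lay below 1 in every class, with ratios from 0.644 (ND4 in T cells) to 0.833 (ATP6 in T cells), and ND3 had a ratio of 0.623 in CD14+ monocytes and 0.744 in MS4A7+ monocytes. All mitochondrial transcripts together took 0.768% of T cell UMIs at 4 wpt and 0.869% for Post-IS, in CD14+ monocytes 1.03% at 4 wpt and 1.24% for Post-IS, and in MS4A7+ monocytes 1.99% at 4 wpt and 2.29% for Post-IS. For COX2 in T cells the other libraries stood at 221 CPM for Pre-IS and 191 CPM at 8 wpt, far nearer to the 4 wpt than to the Post-IS level. Likewise ND4L in CD14+ monocytes had 18.2 CPM in the Pre-IS library and 37.5 CPM in the 8 wpt library, beside 28.1 CPM at 4 wpt and 455 CPM for Post-IS. The Post-IS library was thus the one that stood apart in these transcripts, and it was also the shallowest library. The part of depth, RNA quality or cell damage in this pattern was not tested. Among cells of at least 700 UMIs 5 transcripts were past the rule in T cells and in CD14+ monocytes and 3 in MS4A7+ monocytes. Thinning to 1000 UMIs also left 3 in MS4A7+ monocytes, and a minimum of 10 expected UMIs left 3 in T cells. Nuclear-encoded respiratory chain genes were level, with medians of 0.03 over 67 measured members in T cells, -0.01 over 69 in CD14+ monocytes and -0.04 over 67 in MS4A7+ monocytes.

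**Figure D4:**
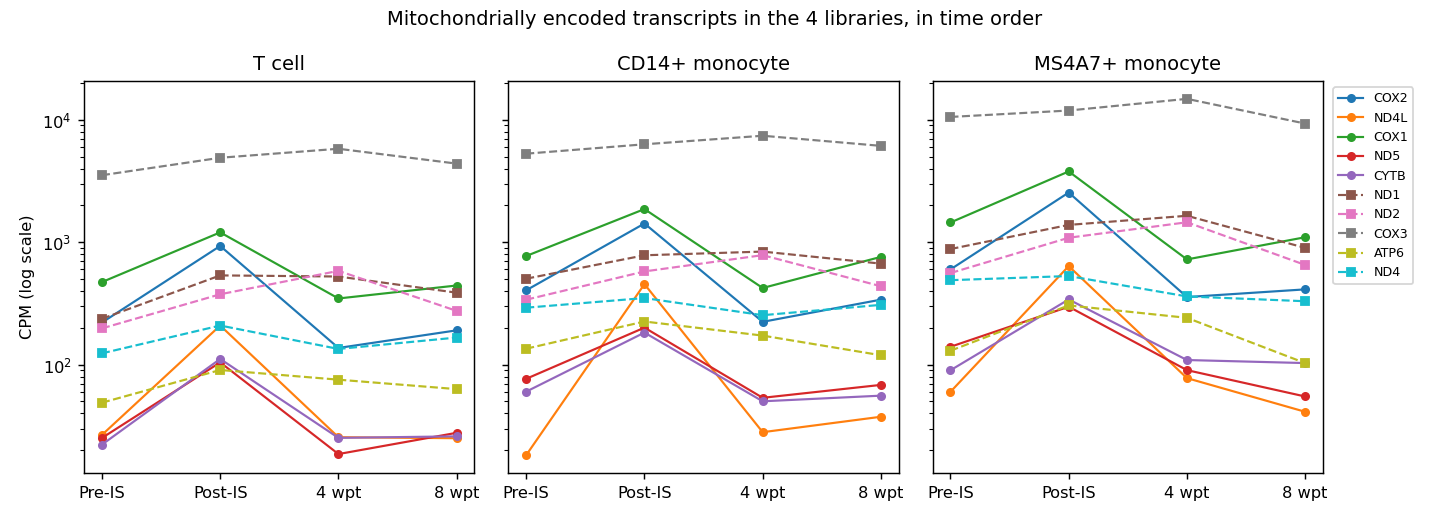
Level (CPM, log axis) of 10 mitochondrially encoded transcripts in the Pre-IS, Post-IS, 4 wpt and 8 wpt libraries, 1 panel per class, where each line joins the 4 libraries of 1 transcript. COX1, COX2, CYTB, ND4L and ND5 peak in the Post-IS library in each class (COX2 in T cells at 932 CPM, against 137 CPM at 4 wpt), while COX3 and ND2 do not.

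Of the remaining shared genes, RBIS, a ribosome biogenesis factor, was the higher one with a symbol. It stood at 214 CPM at 4 wpt, against 76.5 CPM for Post-IS in T cells, 2.80-fold higher (1.56 to 5.64), at 236 CPM at 4 wpt against 86.9 CPM for Post-IS in CD14+ monocytes, 2.72-fold higher (1.94 to 3.91), and at 169.9 CPM at 4 wpt against 43.5 CPM for Post-IS in MS4A7+ monocytes, 3.90-fold higher (1.72 to 10.95). Its Pre-IS levels of 79.3, 82.1 and 69.97 CPM and its 8 wpt levels of 109, 94.3 and 103 CPM in these classes lay below those at 4 wpt. In T cells the order of its levels over the 4 libraries was that of the median UMIs per cell, and the part of depth was not tested. The other higher gene, ENSMMUG00000055690, has no symbol in the files or the reference table and had ratios of 2.11 (1.98 to 2.26) in T cells, 2.31 (2.23 to 2.40) in CD14+ monocytes and 3.24 (3.05 to 3.44) in MS4A7+ monocytes. At 4 wpt 1 CD14+ monocyte held 2377 of its 21503 UMIs. BTG1, an antiproliferative factor, was lower in every class, at 1208 CPM at 4 wpt against 2087 CPM for Post-IS in T cells, 595 CPM at 4 wpt against 1525 CPM for Post-IS in CD14+ monocytes and 474 CPM at 4 wpt against 1407 CPM for Post-IS in MS4A7+ monocytes. ZC3H10 was lower in every class too. In T cells it stood at 1936 CPM at 4 wpt against 7271 CPM for Post-IS, with 3884 CPM in the Pre-IS library and 2787 CPM in the 8 wpt library. Its level thus ran opposite to the median depth of the 4 libraries, and the part of depth was not tested. The last 3 shared lower genes have no symbol.

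Genes could also be shared by a pair of classes. Of 4115 genes that entered in both monocyte classes, 5 were higher and 27 lower in both, the 27 among 114 lower in CD14+ monocytes and 45 lower in MS4A7+ monocytes. T cells and CD14+ monocytes had 3 higher and 17 lower in common among 3282 genes, the 17 among 35 lower in T cells and 76 lower in CD14+ monocytes. T cells and MS4A7+ monocytes had 2 higher and 10 lower in common among 2785 genes, which were those shared by all 3 classes. The number of genes that could pass differs with the depth of each class, so these counts are not ranked further.

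Lower in both monocyte classes but not counted in T cells were 17 genes, of which 15 have a symbol. They held the myeloid transcription factors CEBPB and CEBPD, and the early response genes FOS and DUSP1. CEBPB was 4.79-fold lower (3.50 to 6.60) in CD14+ and 2.24-fold lower (1.60 to 3.13) in MS4A7+ monocytes. They also held the metabolic regulators PDK4, TXNIP and DDIT4, and the iron store subunit FTL. PDK4, which turns cells from glucose to fat oxidation, was 11.8-fold lower (4.77 to 34.9) in CD14+ and 5.62-fold lower (2.16 to 15.6) in MS4A7+ monocytes. FTL was 1.74-fold lower (1.60 to 1.88) in CD14+ and 1.70-fold lower (1.52 to 1.90) in MS4A7+ monocytes. CRIP1, a LIM domain protein, stood at 1323 CPM at 4 wpt, against 3573 CPM for Post-IS in CD14+ monocytes and at 1955 CPM at 4 wpt against 3539 CPM for Post-IS in MS4A7+ monocytes. TIMP1 was 4.11-fold lower (3.38 to 5.01) in MS4A7+ monocytes, at 401 CPM at 4 wpt against 1646 CPM for Post-IS. LST1, BRI3, FAM107B, SPCS2 and SYN1 complete the set. MAP2K2 and the N-myristoyltransferase NMT1 were lower in both T cells and CD14+ monocytes. MAP2K2 was 2.41-fold lower (1.83 to 3.18) in CD14+ monocytes, and NMT1 2.64-fold lower (1.72 to 3.92) in T cells and 2.48-fold lower (1.87 to 3.27) in CD14+ monocytes. UQCRB, of respiratory complex III, was higher in both, at 108 CPM at 4 wpt against 6.96 CPM for Post-IS in T cells, on 1 Post-IS UMI, and at 124 CPM at 4 wpt against 35.7 CPM for Post-IS in CD14+ monocytes.

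Few genes could be placed in 1 class alone, a count that the rule itself limits. Only genes within 1.5-fold in both other classes could be counted, 109 for CD14+ monocytes, 165 for T cells and 150 for MS4A7+ monocytes. Over all genes 0.683% were higher and 2.38% lower in CD14+ monocytes, so these counts are not read as rare or frequent. Genes past the rule in 1 class whose interval lay wholly within 1.5-fold in both others numbered 4 of 91 in CD14+ monocytes, 1 of 35 in T cells and 0 of 31 in MS4A7+ monocytes, the totals being genes past the rule and measured in all 3 classes. The 3 with a symbol were ZFP36, MCL1 and RPS3A, all in CD14+ monocytes. MCL1 stood at 374 CPM at 4 wpt against 807 CPM for Post-IS in CD14+ monocytes, at 329 CPM at 4 wpt against 348 CPM for Post-IS in T cells and at 419.5 CPM at 4 wpt against 449.7 CPM for Post-IS in MS4A7+ monocytes. ZFP36 stood at 220.1 CPM at 4 wpt against 223 CPM for Post-IS in T cells and 826 CPM at 4 wpt against 986 CPM for Post-IS in MS4A7+ monocytes. Most other genes lacked the counts in 1 of the classes for this statement.

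The ratio of class ratios, a measure chosen after seeing the data, gave a further set. By this measure the CD14+ monocyte ratio of KLF6 was 4.00-fold (2.77 to 5.76) below that of T cells and 2.80-fold (1.86 to 4.21) below that of MS4A7+ monocytes. For ZFP36 it was 2.75-fold (1.91 to 3.96) and 2.36-fold (1.90 to 2.93) below, and for BTG2, an antiproliferative early response gene, 2.98-fold (1.53 to 5.81) and 2.72-fold (1.95 to 3.78). BTG2 had 266 CPM at 4 wpt against 524 CPM for Post-IS in CD14+ monocytes, 100 CPM at 4 wpt against 62.6 CPM for Post-IS in T cells and 575 CPM at 4 wpt against 413 CPM for Post-IS in MS4A7+ monocytes. In T cells the ratio of HEXIM1, an inhibitor of the elongation kinase P-TEFb, was 3.14-fold (1.64 to 6.03) below that of CD14+ and 5.49-fold (1.90 to 15.9) below that of MS4A7+ monocytes. HEXIM1 had 30.3 CPM at 4 wpt against 97.4 CPM for Post-IS in T cells, 93.6 CPM at 4 wpt against 98.1 CPM for Post-IS in CD14+ monocytes and 65.03 CPM at 4 wpt against 36.3 CPM for Post-IS in MS4A7+ monocytes. The transcription factor RFX1 was 4.77-fold (2.04 to 11.1) and 4.01-fold (1.55 to 10.4) below, with 22.1 CPM at 4 wpt against 118 CPM for Post-IS in T cells. In MS4A7+ monocytes the ratio of the actin binder TAGLN2 was 2.65-fold (1.75 to 4.02) below that of T cells and 2.35-fold (1.61 to 3.42) below that of CD14+ monocytes, at 122 CPM at 4 wpt against 413 CPM for Post-IS. ADD3, a membrane skeleton adducin, was the 1 gene above both others, by 8.24-fold (1.53 to 44.4) and 7.97-fold (1.51 to 42.2), on 38 UMIs at 4 wpt against 1 for Post-IS. These are 3 genes for CD14+ monocytes and 2 each for T cells and MS4A7+ monocytes.

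The remaining gene lists had few or no members past the rule. Proteasome genes had medians of 0.23 in T cells, 0.00 in CD14+ monocytes and 0.10 in MS4A7+ monocytes, with 11 of 32, 2 of 37 and 4 of 32 measured members at least 1.5-fold higher and none past the rule. The 11 of 32 in T cells stand beside 17.3% of all genes. MHC class I and peptide loading genes had medians of 0.27, 0.28 and -0.06 in that order, with none past the rule either. Cell cycle and DNA replication genes stood at -0.01, -0.07 and -0.01, splicing factors at 0.06, -0.01 and 0.01, and glycolysis and hypoxia genes at 0.03, -0.07 and -0.20. Calcineurin, NFAT and activation genes, a pathway that common transplant drugs act on, stood at 0.03 in T cells, where 0 of 9 measured members were at least 1.5-fold higher and 2 lower. The IL-2 and common gamma chain list stood at 0.03 in T cells over 10 measured members, 3 of them at least 1.5-fold higher and 1 lower, and mTOR and nutrient sensing genes at 0.10 over 8. In CD14+ monocytes the calcineurin, IL-2 and mTOR lists had medians of -0.27, 0.09 and -0.18, with 2, 1 and 2 members lower by the interval rule. In MS4A7+ monocytes their medians were -0.24, -0.34 and -0.04, with 0, 0 and 2 members lower by that rule. Actin cytoskeleton genes had medians of 0.16 in T cells, -0.19 in CD14+ monocytes and -0.01 in MS4A7+ monocytes, phagocytosis and lysosome genes of -0.16, -0.14 and -0.28, and metallothionein and oxidative stress genes of -0.13, -0.14 and -0.20. Pattern recognition and inflammasome genes stood at 0.42 over 6 measured members in T cells, -0.05 over 19 in CD14+ monocytes and 0.00 over 15 in MS4A7+ monocytes. Chemokine receptors and homing genes had medians of 0.10, -0.36 and -0.08 and histones of 0.10, -0.19 and 0.10 in the same order of classes. Of 14 islet endocrine genes 1 is in the files, and it reached the minimum level in none of the 3 classes.

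**Figure D5:**
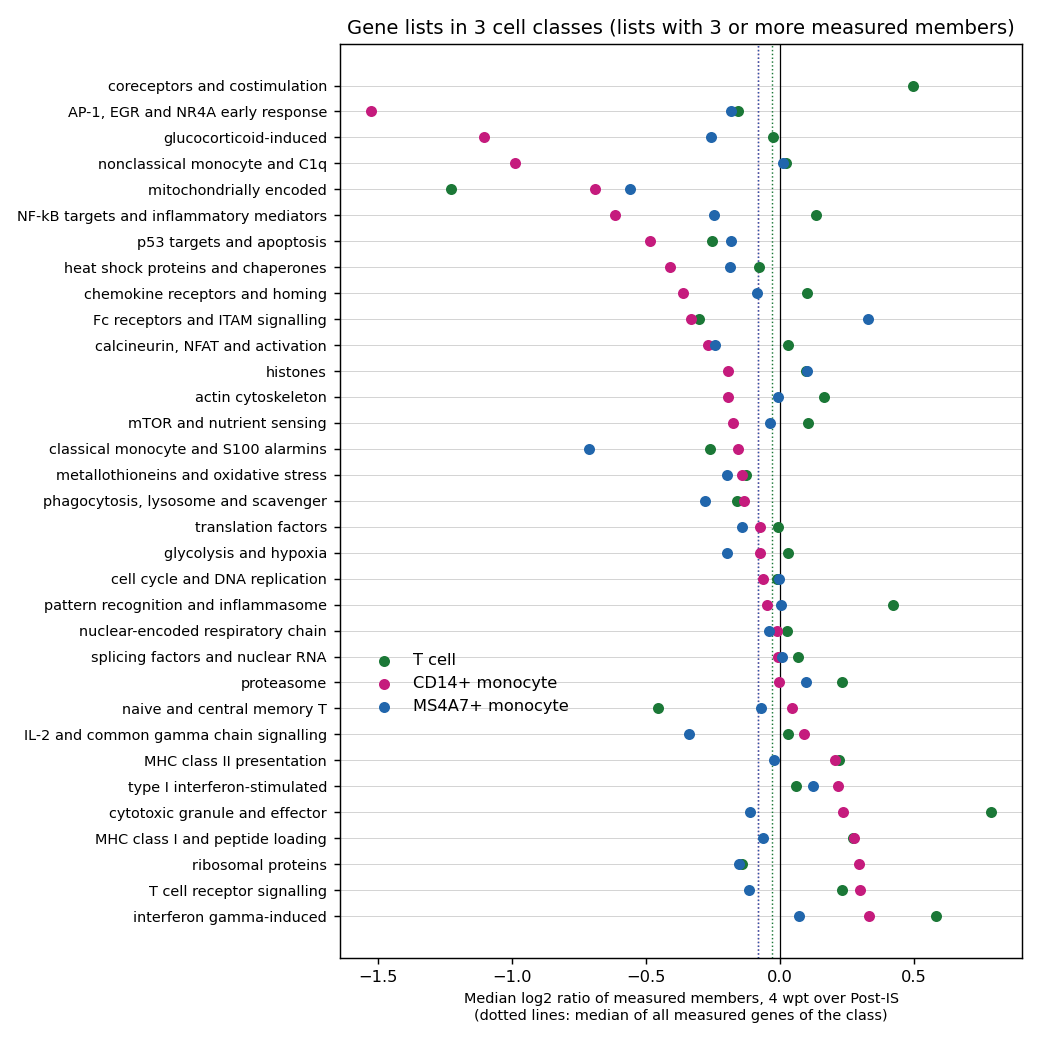
Median log2 ratio of 4 wpt over Post-IS for each gene list with at least 3 measured members, marker lists of other lineages left out, in T cells, CD14+ monocytes and MS4A7+ monocytes, with dotted lines at the median of all measured genes of each class. Among the lists drawn the early response list in CD14+ monocytes lies lowest at -1.53 and the cytotoxic list in T cells highest at 0.79, while most lists lie between -0.5 and 0.5.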

How the data were processed

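The files hold UMI counts per gene and cell and a cell label per barcode, both as deposited. Per the submitters' processing notes the authors worked on build Mmul_10 with Cell Ranger 3.1.0 and Seurat 3.2.3. How they chose cells and treated doublets is not given in the sources used here, and no doublet caller was run. The table has 15354 gene rows, of which 2559 carry only an ID. A reference table named 400 of these and left 2159 without a symbol.

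Counts were summed per library and label and given as CPM of the class total. The 4 wpt over Post-IS ratio has an exact conditional binomial interval at 95% confidence (scipy 1.17.1, numpy 2.4.6, pandas 2.3.3, Python 3.11.15). Shares have exact binomial (Clopper-Pearson) intervals. Intervals treat UMIs as independent and cover counting error only, so they are too narrow where few cells hold a gene's UMIs. A gene was measured at 5 or more expected UMIs in the smaller total. It entered where it also had, in at least 1 of the libraries, at least 10% of the CPM of the highest class with 50 or more cells. It was past the rule where the whole interval lay beyond 1.5-fold. List medians of log2 ratios use an offset of 0.5 UMI. Named were the 10 genes per class and direction with interval bounds farthest beyond 1.5-fold, genes shared by all classes, up to 6 private genes per class, and in each list up to 6 members with the farthest bounds plus its best-known ones. Unnamed genes and abundant families were passed over outside their own list. So were genes with UMIs in under 5% of cells, and list members such as C1QA, EGR2, NR4A2 and TUBB1 were named although under it. Others past the rule, such as CASP12, STXBP2, CD48, HMGA1, APOBEC3A, THBD, MAMU-DOA and CST3, were named after their values were seen. The comparison, gene lists and rules were chosen with earlier results of these data known.

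Alternatives were TMM scaling (edgeR 4.0.16 in R 4.3.3), median of ratios scaling, totals without abundant gene families, equal weight per cell, thinning to 1000 UMIs, possible doublets left out, other minimum levels, no free RNA rule, pooled monocyte labels and other thresholds. Thinning left out all cells under 1000 UMIs. The calling was tested on simulated counts. These were drawn with independent UMIs, as the intervals assume. They cannot show how the calls fare where few cells hold a gene's UMIs or where libraries differ. Some genes are not reported here.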

Additional observations from a re-analysis of the deposited data

How the results depend on the processing

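No paired analysis was possible because each group is 1 library, and no replicate could be left out. TMM and median of ratios scaling moved ratios by under 0.1 on the log2 scale and no count by over 1.5 times. Under each, the ratio of ENSMMUG00000055690 in CD14+ monocytes left its narrow counting interval. Over all alternatives, counted per gene, class and alternative, 57 ratios of named genes left their main interval and 1299 did not. Counted per list, class and alternative, 49 list medians moved by over 0.3 on the log2 scale and 1478 did not. Totals without the abundant families (globin, antigen receptor, mitochondrial and ribosomal genes) gave 10 genes higher in T cells, 1 higher in all 3 classes and 2 private to T cells, that is past the rule there and within 1.5-fold in both other classes. Equal weight per cell gave 29 genes higher in T cells, 100 in CD14+ and 47 in MS4A7+ monocytes, 78 lower in MS4A7+ monocytes, 2 private to T cells, and an IL-2 list median of 0.10 in MS4A7+ monocytes, with its sign reversed. Thinning to 1000 UMIs gave 25 lower in T cells, 24 higher and 91 lower in CD14+ monocytes, and 1 higher and 4 lower in all 3. Private genes were then 0 in T cells, 2 in CD14+ and 6 in MS4A7+ monocytes, cytotoxic genes in T cells 3, mitochondrial genes lower in MS4A7+ monocytes 3 and type I interferon genes in CD14+ monocytes 1. A minimum of 10 expected UMIs gave 11 higher and 26 lower in T cells, 5 lower in all 3 and 3 mitochondrial genes in T cells. With no minimum, T cells had 33 higher and 81 lower, and medians reversed sign for pattern recognition in T cells (-0.76) and NK genes in CD14+ monocytes (0.20). Pooling put the cells of both monocyte labels into 1 class, which had 53 genes higher, 134 lower and 15 early response genes lower. The pool and T cells had 17 lower genes in common. In the pool the IL-2 list had a median of 0.0227, where MS4A7+ monocytes alone had a negative one. Fc receptors had 0.0180, where CD14+ monocytes alone had a negative median. These values describe the pool and not either label. Private genes have no value under pooling.

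A 2-fold threshold gave 3 higher and 22 lower in T cells, 12 and 68 in CD14+ and 4 and 22 in MS4A7+ monocytes, and 0 higher in all 3. Private genes were 0, 1 and 1 in these classes, early response genes in MS4A7+ monocytes 1, cytotoxic genes in T cells 2 and type I interferon genes in CD14+ monocytes 2. The ratio itself gave 612 and 450, 839 and 1122, and 617 and 729 in this order, 26 higher and 49 lower in all 3, 13, 8 and 13 private genes, 10 cytotoxic and 10 interferon genes. Chosen after seeing the data, cells of at least 700 UMIs gave 1 higher and 6 lower in all 3 and 3 mitochondrial genes in MS4A7+ monocytes, and a ratio differing from both other classes gave 2 private genes each in T cells and MS4A7+ monocytes. The log2 ratio of shares was 1.00 for T cells and -0.63 for MS4A7+ monocytes at 1000 UMIs or more and -0.62 for MS4A7+ monocytes at 700 or more. The platelet share at 4 wpt was 0.113% at 1000 UMIs or more and 0.107% among cells with a marker of their label. The cause of these differences was not tested. Early response genes lower in CD14+ monocytes numbered between 13 and 21 under every alternative. The 115 Post-IS T cells and their low depth limit what T cell results can show.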
